A study of Mus musculus with 9 samples.

Results

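Macrophage markers in the skin of UVB-irradiated nude mice were examined through 10 genes: Cd68, Adgre1, Csf1r, Mrc1, Cd163, Fcgr1, C1qa, C1qb, C1qc and Lyz2. The members were the rows of the deposited gene table that carry these symbols, and all 10 were found among its 57180 rows. Each symbol had 1 row, and all 10 passed the filter on low counts that left 17168 genes for testing.

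The study measured total RNA from the skin of BALB/c-nude mice by RNA sequencing, in 9 libraries that fall into 3 groups of 3. NoUVB skin was not irradiated, and the sources used here name no injection for it. UVB_Saline and UVB_hCOL3A1 skin was irradiated on the back every other day for 8 weeks, at 60 mJ/cm² (1 minimal erythemal dose) at first and at 120, 180 and then 240 mJ/cm² (4 minimal erythemal doses) later. Irradiated mice were given saline or hCOL3A1, by the series title an mRNA for type III collagen. Collection was at day 28, and the day from which this was counted is not given in the sources used here. Neither are the age and sex of the mice, nor the dose, carrier and route of hCOL3A1. No group in this series received a carrier or another RNA alone, so hCOL3A1, its carrier and RNA delivery as such cannot be told apart. The nude strain, which all groups share, lacks a normal thymus and most T cells but keeps macrophages and other innate cells. The labels do not say which animal a library came from, so the p-values measure the spread between these libraries, which may be partly technical.

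Macrophages are phagocytes that reside in the dermis and are also renewed from blood monocytes. They depend on signalling through the receptor encoded by Csf1r, whose ligands are Csf1 and Il34, and they take up debris, immune complexes and apoptotic cells through scavenger, lectin and Fc receptors. Tissue macrophages are also a main source of complement C1q, the recognition subunit that opens the classical complement pathway. In a piece of skin, more macrophages and more marker RNA per macrophage cannot be told apart, which holds for every value given here.

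The libraries held 7640172 to 12927411 estimated counts. A single 18S ribosomal RNA row, Rn18s-rs5, took 34.3% to 55.3% of the counts in 8 of them and 7.71% in NoUVB 2, which left 4274106 to 7402229 counts outside that row. A principal component analysis used log2 CPM, which are counts relative to library size. UVB_Saline 3 lay on the leading axis at 55.0 and UVB_hCOL3A1 3 at 39.8, while the other 7 lay lower, down to -33.5 in UVB_Saline 1. The second axis ran from -38.4 in UVB_hCOL3A1 2 to 29.8 in UVB_Saline 3. These 2 libraries stood apart from the rest. Values without UVB_Saline 3 are given for the members as a set and for several lists. Such values are not given for every gene or list, so results without them may still depend on UVB_Saline 3. Sample titles and column headers name no batch, so whether the libraries were processed together cannot be told from them. Keratinocyte markers, as a check of the tissue, were abundant: 7 of them summed to 6084 to 9876 CPM per library.

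Sequence upstream of the members was read from RefSeq (mouse build GRCm38.p6), as the 250 bases before each gene start, and 7 members matched its table (Cd68, Mrc1, Cd163, Fcgr1, C1qb, C1qc and Lyz2). The windows of 4 are printed because their expression patterns stand at the extremes described further on: C1qb, C1qc and Mrc1 were among those that varied most alike over the 9 libraries, and Cd163 varied least like the other members. Capitals mark AGGAAGT on either strand, here read as ACTTCCT, which is the purine-rich core bound by PU.1, the product of Spi1 and a master regulator of macrophage genes, and by other ETS factors. 
C1qb, chr4:136886201-136886450, minus strand: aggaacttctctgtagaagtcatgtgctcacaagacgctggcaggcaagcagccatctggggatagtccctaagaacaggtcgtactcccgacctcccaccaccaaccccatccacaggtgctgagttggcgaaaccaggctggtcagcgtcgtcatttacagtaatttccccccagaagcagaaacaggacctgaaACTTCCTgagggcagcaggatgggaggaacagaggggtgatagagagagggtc
C1qc, chr4:136892915-136893164, minus strand: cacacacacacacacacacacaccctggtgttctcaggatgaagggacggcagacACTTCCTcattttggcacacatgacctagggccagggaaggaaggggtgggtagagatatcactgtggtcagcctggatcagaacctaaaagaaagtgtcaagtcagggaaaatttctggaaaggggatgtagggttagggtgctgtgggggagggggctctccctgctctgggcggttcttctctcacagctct
Mrc1, chr2:14229164-14229413, plus strand: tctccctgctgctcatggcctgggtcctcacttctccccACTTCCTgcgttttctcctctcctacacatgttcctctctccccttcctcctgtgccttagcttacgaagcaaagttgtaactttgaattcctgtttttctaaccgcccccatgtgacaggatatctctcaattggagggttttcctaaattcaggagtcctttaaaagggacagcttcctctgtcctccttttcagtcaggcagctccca
Cd163, chr6:124304401-124304650, plus strand: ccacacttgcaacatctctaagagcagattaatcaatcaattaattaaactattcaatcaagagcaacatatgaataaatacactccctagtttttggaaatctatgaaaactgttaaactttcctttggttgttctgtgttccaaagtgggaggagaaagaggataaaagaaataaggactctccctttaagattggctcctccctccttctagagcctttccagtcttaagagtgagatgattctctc

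The motif was present in 5 of the 7 windows. It starts 53 bases before the gene start in C1qb, 195 in C1qc, 211 in Mrc1, 61 in Fcgr1 and 100 in Lyz2, and the Cd68 and Cd163 windows hold no match. It is held by 8.8% of all 27025 genes there, a share given as background only, because the motif was chosen after the member windows had been seen. A match describes these letters and is not a measured binding site, and a link to expression was not tested. Cd163 and Cd68, without a match, followed the mean member level described further on at Pearson's r of 0.53 and 0.86. The 5 with a match did so at 0.76 (Fcgr1) to 0.97 (Mrc1, C1qb and C1qc). That mean includes each gene itself, so these values are descriptions, and whether they relate to the motif was not tested. C1qb, C1qc and C1qa are consecutive protein-coding genes on chromosome 4, and Lyz2 lies beside Lyz1 on chromosome 10.

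Across all libraries the members spanned a wide range of abundance. Per kb of exon, Lyz2 had the highest level at 157 ± 55.7 CPM per kb (SD, n = 9). The C1q chains C1qb (33.8 ± 13.1) and C1qa (25.7 ± 11.2) and the lysosomal glycoprotein gene Cd68 (24.8 ± 12.7) came next, followed by Mrc1 (16.2 ± 4.44), Csf1r (14.8 ± 4.27), C1qc (13.1 ± 5.38) and Cd163 (11.2 ± 3.71), all in CPM per kb with SD. Adgre1, at 6.32 ± 3.62 CPM per kb, and Fcgr1, at 2.29 ± 1.54, were lowest. Apart from Lyz2, whose mean lay far above the rest, each gene in this order differed from its neighbour by less than the sum of their SDs.

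When the groups were compared, most members separated hCOL3A1-treated from unirradiated skin, while UVB_Saline 3 reached into the hCOL3A1 range. In 8 of the 10 members every UVB_hCOL3A1 library exceeded every NoUVB library, by fitted factors of 1.46 (Csf1r and Mrc1) to 4.69 (Fcgr1). The same held for 10.7% of all genes. In 4 members (Cd68, Adgre1, Mrc1 and C1qb) every UVB_hCOL3A1 library also exceeded every UVB_Saline library, by factors of 1.53 to 2.17. The share of all genes above saline in this way was 8.95%. Saline-treated irradiated skin overlapped unirradiated skin in all 10, while 7.18% of all genes were higher in saline without overlap. No member passed an adjusted p of 0.05 in any comparison by edgeR's quasi-likelihood test with Benjamini-Hochberg adjustment over all 17168 genes, so these are directions of 3 against 3 libraries and not called changes.

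**Figure D1:**
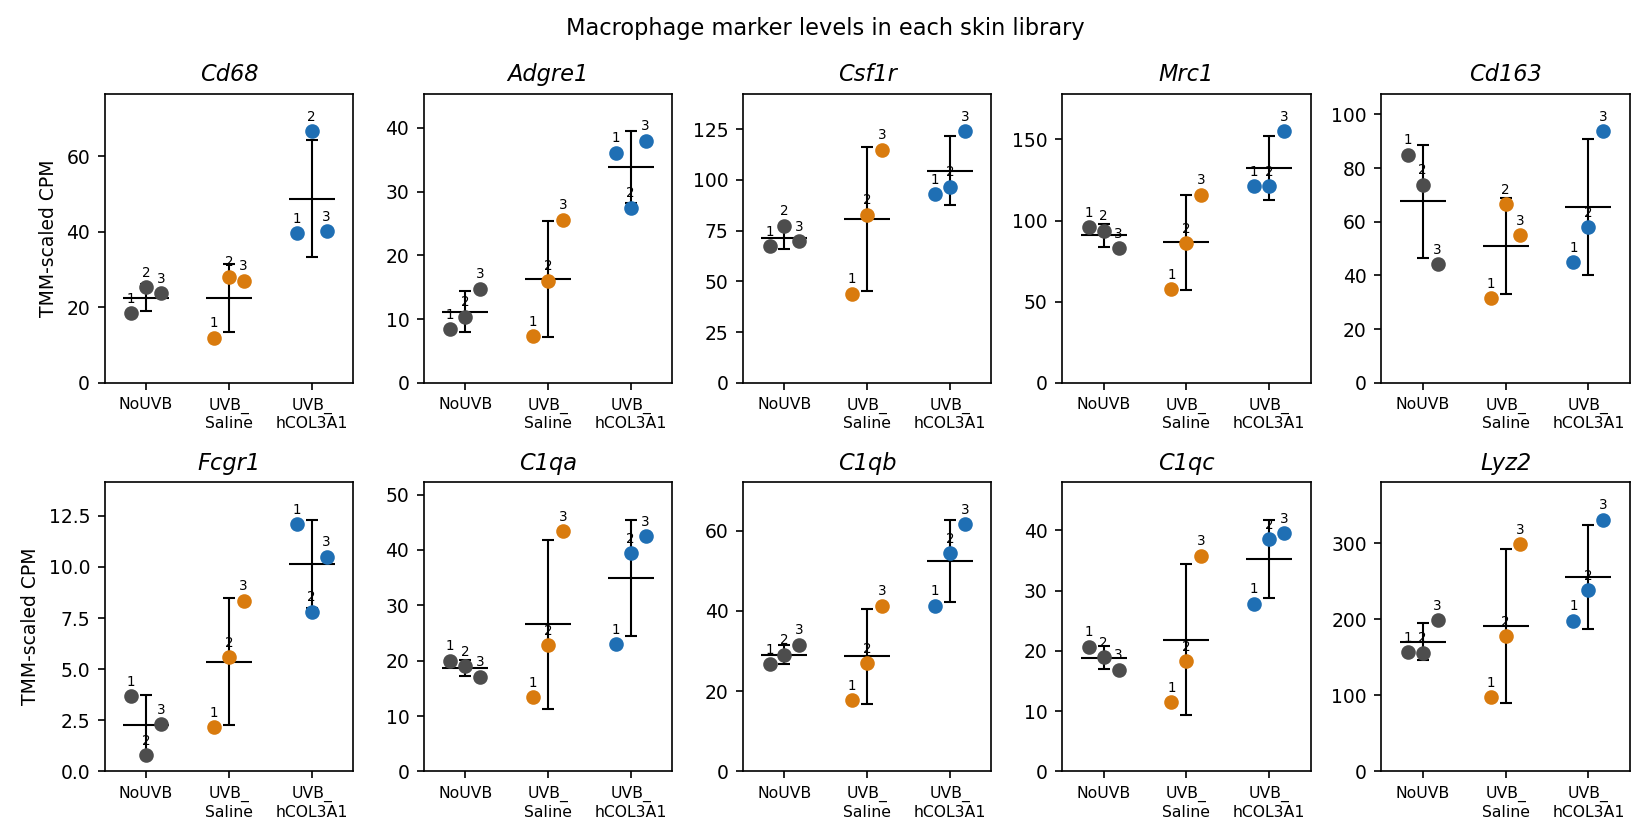
Level of each macrophage marker in every library, in TMM-scaled CPM (linear axis from 0), by group. Points are libraries labelled by replicate number, the long bar is the group mean and the error bar 1 SD (n = 3). In Cd68, Adgre1, Mrc1 and C1qb all blue points lie above all orange points, and in Cd163 the 3 groups overlap.

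Cd68 encodes macrosialin, a glycoprotein of late endosomes and lysosomes that is abundant in phagocytes. Its level was 18.5, 25.4 and 23.7 CPM in NoUVB 1 to 3, 12.0, 28.1 and 27.0 CPM in UVB_Saline 1 to 3, and 39.6, 66.6 and 40.2 CPM in UVB_hCOL3A1 1 to 3. All hCOL3A1 libraries lay above the other 6, with UVB_hCOL3A1 2 highest, while the saline and unirradiated libraries overlapped. The fitted log2 difference was 1.12 ± 0.33 (SE; 95% interval 0.38 to 1.86) against saline, with an adjusted p of 0.301 by edgeR, and 1.11 ± 0.33 against NoUVB, with an adjusted p of 0.255 by edgeR. Saline minus NoUVB was -0.01 ± 0.33.

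Adgre1 encodes F4/80, the adhesion receptor most used to stain mouse macrophages. It stood at 8.38, 10.4 and 14.8 CPM in NoUVB, at 7.29, 16.0 and 25.6 CPM in UVB_Saline, and at 36.1, 27.5 and 38.0 CPM in UVB_hCOL3A1. The lowest hCOL3A1 library exceeded the highest saline library by 1.89 CPM and the highest unirradiated one by 12.7 CPM. The log2 difference was 1.06 ± 0.39 against saline (adjusted p = 0.379, edgeR) and 1.58 ± 0.40 against NoUVB (adjusted p = 0.202, edgeR). The saline group alone spanned from below every unirradiated library to above every one of them, and its difference from NoUVB was 0.52 ± 0.41.

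Csf1r encodes the receptor through which CSF-1 and IL-34 keep macrophages alive. Its level was 67.3, 77.5 and 69.8 CPM in NoUVB, 44.0, 82.8 and 115 CPM in UVB_Saline, and 93.0, 96.6 and 124 CPM in UVB_hCOL3A1. UVB_Saline 3 reached the hCOL3A1 range, so those groups overlapped, while all hCOL3A1 libraries exceeded the unirradiated ones. The log2 differences were 0.38 ± 0.29 against saline (adjusted p = 0.670, edgeR) and 0.54 ± 0.29 against NoUVB (adjusted p = 0.514, edgeR).

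Mrc1 encodes the mannose receptor CD206, an endocytic lectin of dermal macrophages. Values were 95.9, 93.7 and 82.8 CPM in NoUVB, 57.7, 86.2 and 116 CPM in UVB_Saline, and 121, 121 and 155 CPM in UVB_hCOL3A1. The hCOL3A1 libraries lay above all others, by 4.70 CPM over the highest saline library. Its log2 difference was 0.61 ± 0.22 against saline (adjusted p = 0.370, edgeR) and 0.54 ± 0.22 against NoUVB (adjusted p = 0.380, edgeR), the smallest standard error of the 10 members.

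Cd163 encodes the haemoglobin-haptoglobin scavenger receptor, also typical of resident dermal macrophages. Its pattern differed from that of the other members: 84.9, 73.8 and 44.3 CPM in NoUVB, 31.6, 66.5 and 55.1 CPM in UVB_Saline, and 45.0, 58.0 and 93.7 CPM in UVB_hCOL3A1. Every pair of groups overlapped, with UVB_hCOL3A1 3 highest and UVB_Saline 1 lowest of the 9. The log2 difference was 0.36 ± 0.37 against saline, -0.05 ± 0.37 (95% interval -0.90 to 0.81) against NoUVB and -0.40 ± 0.37 for saline against NoUVB, with adjusted p-values of 0.770, 0.979 and 0.787 by edgeR.

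Fcgr1 encodes the high-affinity IgG receptor CD64. It was the least abundant member, with 9 to 26 estimated counts per library in NoUVB, 21 to 77 in UVB_Saline and 83 to 159 in UVB_hCOL3A1. On the CPM scale these were 3.69, 0.804 and 2.31 in NoUVB, 2.16, 5.59 and 8.35 in UVB_Saline, and 12.1, 7.81 and 10.5 in UVB_hCOL3A1. The hCOL3A1 libraries lay above all unirradiated ones, and UVB_hCOL3A1 2 lay just under UVB_Saline 3. Fcgr1 had the largest difference of the members from NoUVB, at 2.23 ± 0.55 for hCOL3A1 (95% interval 0.98 to 3.48, adjusted p = 0.192, edgeR) and 1.31 ± 0.57 for saline (unadjusted p = 0.0471, adjusted p = 0.521, edgeR). Between the irradiated groups it was 0.92 ± 0.49 (adjusted p = 0.519, edgeR).

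C1qa, C1qb and C1qc encode the A, B and C chains that assemble into C1q. C1qa stood at 20.0, 19.0 and 17.1 CPM in NoUVB, 13.4, 22.8 and 43.4 CPM in UVB_Saline, and 23.0, 39.4 and 42.5 CPM in UVB_hCOL3A1. C1qb stood at 26.7, 29.1 and 31.6 CPM in NoUVB, 17.8, 26.9 and 41.3 CPM in UVB_Saline, and 41.3, 54.4 and 61.6 CPM in UVB_hCOL3A1. C1qc stood at 20.7, 18.9 and 16.9 CPM in NoUVB, 11.5, 18.3 and 35.8 CPM in UVB_Saline, and 27.8, 38.5 and 39.5 CPM in UVB_hCOL3A1. In all 3 chains UVB_Saline 1 was the lowest of the 9 libraries, and the hCOL3A1 libraries lay above all unirradiated ones. Against saline C1qb alone did not overlap, and there UVB_hCOL3A1 1 exceeded UVB_Saline 3 by 0.0217 CPM. The log2 differences between hCOL3A1 and saline were 0.40 ± 0.39 for C1qa, 0.87 ± 0.27 for C1qb and 0.69 ± 0.35 for C1qc, with adjusted p-values of 0.754, 0.313 and 0.498 by edgeR. Against NoUVB they were 0.90 ± 0.40, 0.84 ± 0.27 and 0.90 ± 0.35, with adjusted p-values of 0.431, 0.292 and 0.372 by edgeR.

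Within a library the 3 chains kept close to one another. The log2 ratio of C1qa to C1qc spanned 0.59 over the 9 libraries, that of C1qc to C1qb 0.69 and that of C1qa to C1qb 0.96. The log2 ratio of Mrc1 to Cd163 spanned 1.25, that of Cd68 to Csf1r 1.55 and that of Fcgr1 to Cd163 4.63. That of Adgre1 to Cd163 spanned 3.02, from -3.34 in NoUVB 1 to -0.32 in UVB_hCOL3A1 1.

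Lyz2 encodes lysozyme M, made by macrophages, monocytes and neutrophils. Its level was 157, 156 and 199 CPM in NoUVB, 97.3, 178 and 299 CPM in UVB_Saline, and 198, 238 and 331 CPM in UVB_hCOL3A1. Groups overlapped in every comparison, with UVB_hCOL3A1 1 just under NoUVB 3. The log2 difference was 0.42 ± 0.37 against saline (adjusted p = 0.721, edgeR) and 0.58 ± 0.38 against NoUVB (adjusted p = 0.596, edgeR). Its neighbour and near copy Lyz1 held 1.12% to 5.05% of the counts of the pair, at 2.73 to 10.6 CPM. The estimated counts assign shared reads between the copies, so the split is uncertain.

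As a set, the members stood higher in the hCOL3A1 libraries in both comparisons that include them. For UVB_hCOL3A1 minus UVB_Saline, all 10 fitted differences were positive with a median of 0.65, against 46.1% positive and a median of -0.02 over all genes. Groups did not overlap, with hCOL3A1 higher, in 4 of 10 members and in 8.95% of all genes. An unadjusted p of at most 0.05 with hCOL3A1 higher was reached by the same 4 genes (Cd68, Adgre1, Mrc1 and C1qb) and by 5.97% of all genes. After adjustment edgeR called 0 members and 0% of genes, from 1938 genes with an unadjusted p of at most 0.05. DESeq2 called 175 genes (1.53%) and 1 member, Cd68, and limma voom called 0 of either.

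For UVB_hCOL3A1 minus NoUVB, 9 of 10 differences were positive with a median of 0.87, against 49.2% and -0.01 over all genes. The groups did not overlap in 8 members, all higher with hCOL3A1, against 10.7% of all genes. Of the members, 6 reached an unadjusted p of at most 0.05 in that direction (Cd68, Adgre1, Mrc1, Fcgr1, C1qb and C1qc), against 6.29% of all genes. After adjustment edgeR called 7 genes, 0.0408% of those tested, and 0 members, DESeq2 called 257 genes (1.46%) and 3 members (Cd68, Adgre1 and Fcgr1), and limma voom called 0 of either. With the NoUVB and hCOL3A1 libraries alone in the edgeR model, 2.47% of genes and 6 members were called (Adgre1, Csf1r, Mrc1, Fcgr1, C1qb and C1qc), and with library size as the only scaling 0.926% and 2 members (Adgre1 and Fcgr1). Both of these comparisons use the same hCOL3A1 libraries.

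For UVB_Saline minus NoUVB, 6 of 10 differences were positive with a median of 0.17, against 51.8% and 0.01 over all genes. In 0 members did the groups separate, against 7.18% of all genes with saline higher, and 1 member, Fcgr1, reached an unadjusted p of at most 0.05 with saline higher, against 4.93% of all genes. After adjustment edgeR called 3 genes, 0.0175%, and 0 members. DESeq2 and limma voom also called 0 members here, with 96 and 2 genes called.

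**Figure D2:**
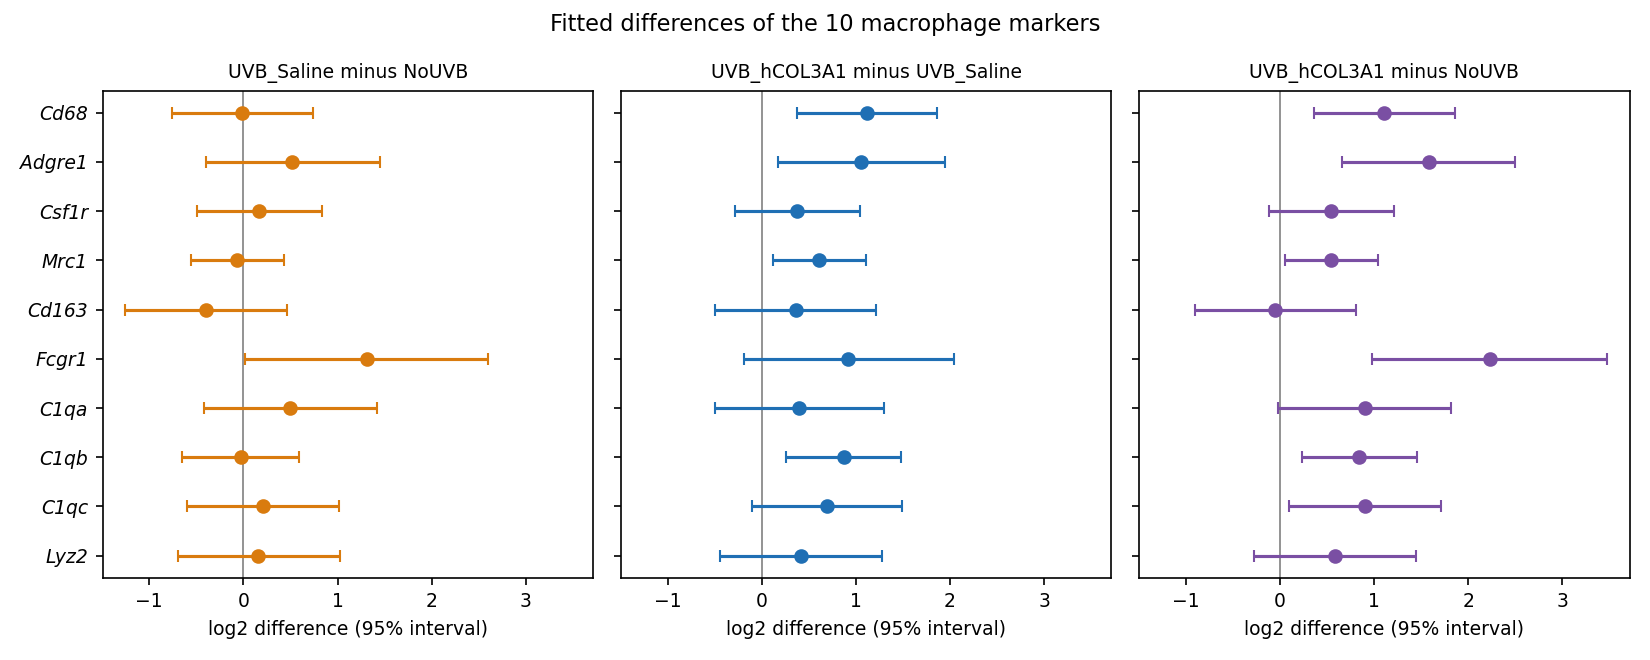
Fitted log2 differences of the 10 members in the 3 comparisons. Points are edgeR quasi-likelihood estimates and bars their 95% intervals, unadjusted for the number of genes. In the middle panel all 10 points lie to the right of 0, with medians of 0.17, 0.65 and 0.87 from left to right.

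The saline libraries were spread widely. The summed level of the 10 members was 503 to 504 CPM in the NoUVB libraries, 295, 531 and 766 CPM in UVB_Saline 1 to 3, and 637, 748 and 936 CPM in UVB_hCOL3A1 1 to 3. UVB_Saline 1 was thus below and UVB_Saline 3 above all unirradiated libraries. The median member was 1.57-fold higher with hCOL3A1 than with saline over all libraries and 2.15-fold higher without UVB_Saline 3. That omission also put the median log2 difference of saline from NoUVB at -0.26. In that fit 2 members (C1qb and C1qc) were called against saline and 3 (Adgre1, C1qb and C1qc) against NoUVB, with 0.442% and 1.37% of genes called. Without UVB_Saline 1 the median log2 differences were 0.39 between hCOL3A1 and saline and 0.47 between saline and NoUVB, and 1 member, Adgre1, was called between hCOL3A1 and NoUVB, where 0.817% of genes were. With UVB_Saline 3 and UVB_hCOL3A1 3 both left out, an alternative chosen after seeing the data, the medians were 0.96 between hCOL3A1 and saline, 0.74 between hCOL3A1 and NoUVB and -0.25 between saline and NoUVB, and 0 members were called by edgeR.

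Over the 9 libraries most members varied together. The highest Pearson correlations of log2 CPM were 0.96 between C1qa and C1qc and 0.95 between Csf1r and Lyz2, between Mrc1 and C1qb, between Mrc1 and C1qc and between C1qb and C1qc. Cd163 correlated with the others at 0.12 (Fcgr1) to 0.62 (Mrc1). These points share 9 libraries, their scaling and their groups, so the correlations are descriptions. After the group means were subtracted, the C1qa and C1qc pair stood at 0.98 and the lowest pair, Cd68 and Fcgr1, at 0.23.

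**Figure D3:**
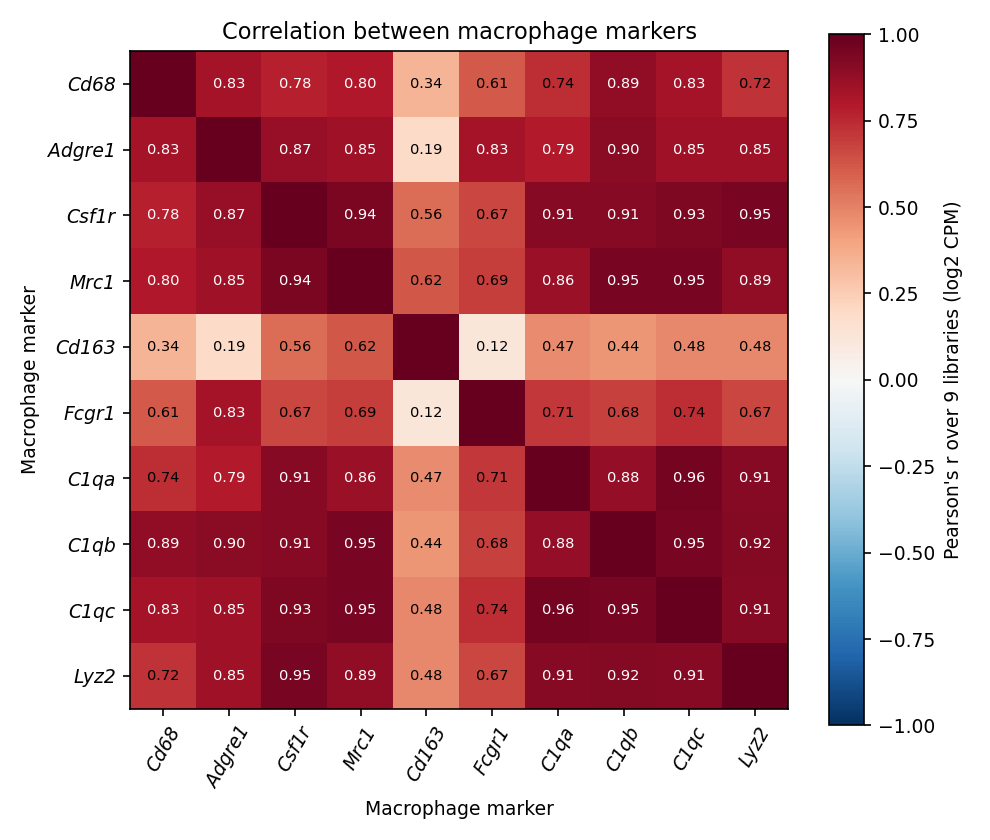
Pearson correlation of log2 CPM between each pair of members over the 9 libraries, on a colour scale from -1 to 1. All pairs are positive; Cd163 has the palest row, from 0.12 to 0.62, and C1qa with C1qc is highest at 0.96.

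The mean standardised level of the members gave 1 profile per library, lowest in UVB_Saline 1 (-1.63) and highest in UVB_hCOL3A1 3 (1.26). Among 12861 other genes, the 5 whose log2 CPM followed this profile most closely were Tlr8, a sensor of RNA in endosomes (r = 0.993), Tyrobp, the adaptor DAP12 of myeloid receptors (r = 0.991), and 3 lysosomal genes. The lysosomal genes were the protease Ctsz (r = 0.979), the cholesterol carrier Npc2 (r = 0.977) and the hexosaminidase subunit Hexa (r = 0.976). Tlr8 ranged from 2.67 CPM in UVB_Saline 1 to 10.9 CPM in UVB_hCOL3A1 3.

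Markers of leukocytes as a whole varied with the same libraries, and their part in the member results was not tested. All 8 pan-leukocyte genes had positive differences in each of the 3 comparisons, with medians of 0.46, 0.46 and 0.89 in the order saline against NoUVB, hCOL3A1 against saline and hCOL3A1 against NoUVB. Without UVB_Saline 3 the median was -0.01, with 4 of 8 positive, for saline against NoUVB and 0.96, with 8 of 8 positive, for hCOL3A1 against saline. Without UVB_Saline 1 these medians were 0.73, with 8 of 8 positive, and 0.14, with 6 of 8 positive. Their summed level was 188 to 255 CPM in NoUVB, 149 to 458 CPM in UVB_Saline and 342 to 489 CPM in UVB_hCOL3A1. Ptprc, which encodes the leukocyte surface antigen CD45, was 58.4, 57.6 and 87.5 CPM in NoUVB, 45.0, 76.8 and 136 CPM in UVB_Saline, and 108, 85.7 and 142 CPM in UVB_hCOL3A1. Its groups overlapped throughout.

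Set against Ptprc in the same library, the members divided. Adgre1 had a mean log2 ratio to Ptprc that was 0.72 higher with hCOL3A1 than with saline and 0.90 higher than in NoUVB, and Fcgr1 one that was 0.60 and 1.67 higher. For both genes the hCOL3A1 libraries lay above all others on this scale, as did 0.518% of genes against saline and 0.763% against NoUVB. For Fcgr1 the margin over saline was thin, with the lowest hCOL3A1 library at -3.76 and the highest saline library at -3.78. For Adgre1 these log2 ratios were -1.90 and -2.26. The other 8 members overlapped in both comparisons. For Csf1r the mean log2 ratio with hCOL3A1 differed by -0.03 from that with saline and by -0.18 from that in NoUVB. Between saline and NoUVB 0 members separated upward, against 0.990% of genes.

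Markers of monocytes, the blood precursors that enter inflamed skin, held the 1 called gene among the macrophage-related lists. Ly6c2, which encodes the monocyte surface antigen Ly6C and has the near-identical neighbour Ly6c1, measured 0.426, 0.804 and 0.769 CPM in NoUVB, 1.23, 4.36 and 5.53 CPM in UVB_Saline, and 9.15, 9.50 and 8.31 CPM in UVB_hCOL3A1. The 3 groups did not overlap, and the NoUVB values, all under 1 CPM, rest on few reads. Ly6c2 rose in hCOL3A1 skin over NoUVB by 3.68 ± 0.49 on the log2 scale (adjusted p = 0.0492, edgeR), and its difference was 1.27 ± 0.39 against saline (adjusted p = 0.302, edgeR) and 2.40 ± 0.51 for saline against NoUVB (adjusted p = 0.266, edgeR). That call lay at the threshold and was lost in 9 of 20 alternatives, among them the omission of any library other than UVB_Saline 1 or 3, with adjusted p-values from 2.23e-10 to 0.252.

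Other monocyte genes were higher in the same direction without being called. Itgam, the integrin CD11b, was 19.2 to 22.3 CPM in NoUVB, 19.8 to 47.5 CPM in UVB_Saline and 62.7 to 73.5 CPM in UVB_hCOL3A1, a difference from NoUVB of 1.72 ± 0.27 (adjusted p = 0.0854, edgeR). Ccr2, the receptor that draws monocytes out of blood, was 16.9 to 19.5, 13.4 to 41.1 and 36.6 to 57.3 CPM, a difference from NoUVB of 1.40 ± 0.35 (adjusted p = 0.202, edgeR). Chil3, a chitinase-like protein, went the other way between the irradiated groups at -2.10 ± 0.88 (adjusted p = 0.425, edgeR), with 8.67 CPM in UVB_Saline 3 and at most 1.73 CPM in any other library. Without UVB_Saline 3 its difference was -0.58, and without UVB_hCOL3A1 3 it was -2.92. Of 12 tested monocyte genes 1 was called higher between hCOL3A1 and NoUVB (0.0408% of all genes) and 4 had separate groups, all higher (10.7% of all genes), and the list median was 0.62. Between hCOL3A1 and saline the median was 0.23, with 0.90 without UVB_Saline 3 and -0.00, with 6 of 12 positive, without UVB_Saline 1.

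Genes of long-term resident macrophages were split. Of 15 tested, 10 had positive differences between hCOL3A1 and saline with a median of 0.15. Without UVB_Saline 3 the median was 0.22, with 14 of 15 positive, and without UVB_Saline 1 it was 0.06, with 8 of 15. Over all libraries 6 had separate groups, all higher, against 8.95% of all genes. The chemokine Pf4 was 2.89 to 5.27 CPM in NoUVB, 3.39 to 5.85 CPM in UVB_Saline and 8.96 to 12.8 CPM in UVB_hCOL3A1, at 1.22 ± 0.26 against saline (adjusted p = 0.202, edgeR). Timd4, a receptor for phosphatidylserine on dying cells, was 1.16 to 1.54 CPM in NoUVB, 0.575 to 1.08 CPM in UVB_Saline and 1.98 to 5.93 CPM in UVB_hCOL3A1, at 2.16 ± 0.46 (adjusted p = 0.202, edgeR). Folr2, a folate receptor of resident macrophages, was 1.95 to 5.75 CPM in UVB_Saline and 7.88 to 13.7 CPM in UVB_hCOL3A1, at 1.22 ± 0.46 (adjusted p = 0.382, edgeR). Siglec1, the sialoadhesin CD169, was 7.41 to 17.9 CPM in NoUVB, 16.5 to 31.0 CPM in UVB_Saline and 35.4 to 42.1 CPM in UVB_hCOL3A1. Its difference was 0.68 ± 0.30 against saline (adjusted p = 0.433, edgeR) and 1.59 ± 0.31 against NoUVB (adjusted p = 0.145, edgeR). Mgl2, a galactose-binding lectin shared with dermal dendritic cells and named after its values were seen, had lower levels instead: 17.9 to 23.6 CPM in NoUVB, 8.52 to 21.7 CPM in UVB_Saline and 5.64 to 13.8 CPM in UVB_hCOL3A1. Its hCOL3A1 and NoUVB libraries did not overlap, at -1.33 ± 0.40 (adjusted p = 0.266, edgeR), and the difference from saline was -0.78 ± 0.40 (adjusted p = 0.507, edgeR).

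**Figure D4:**
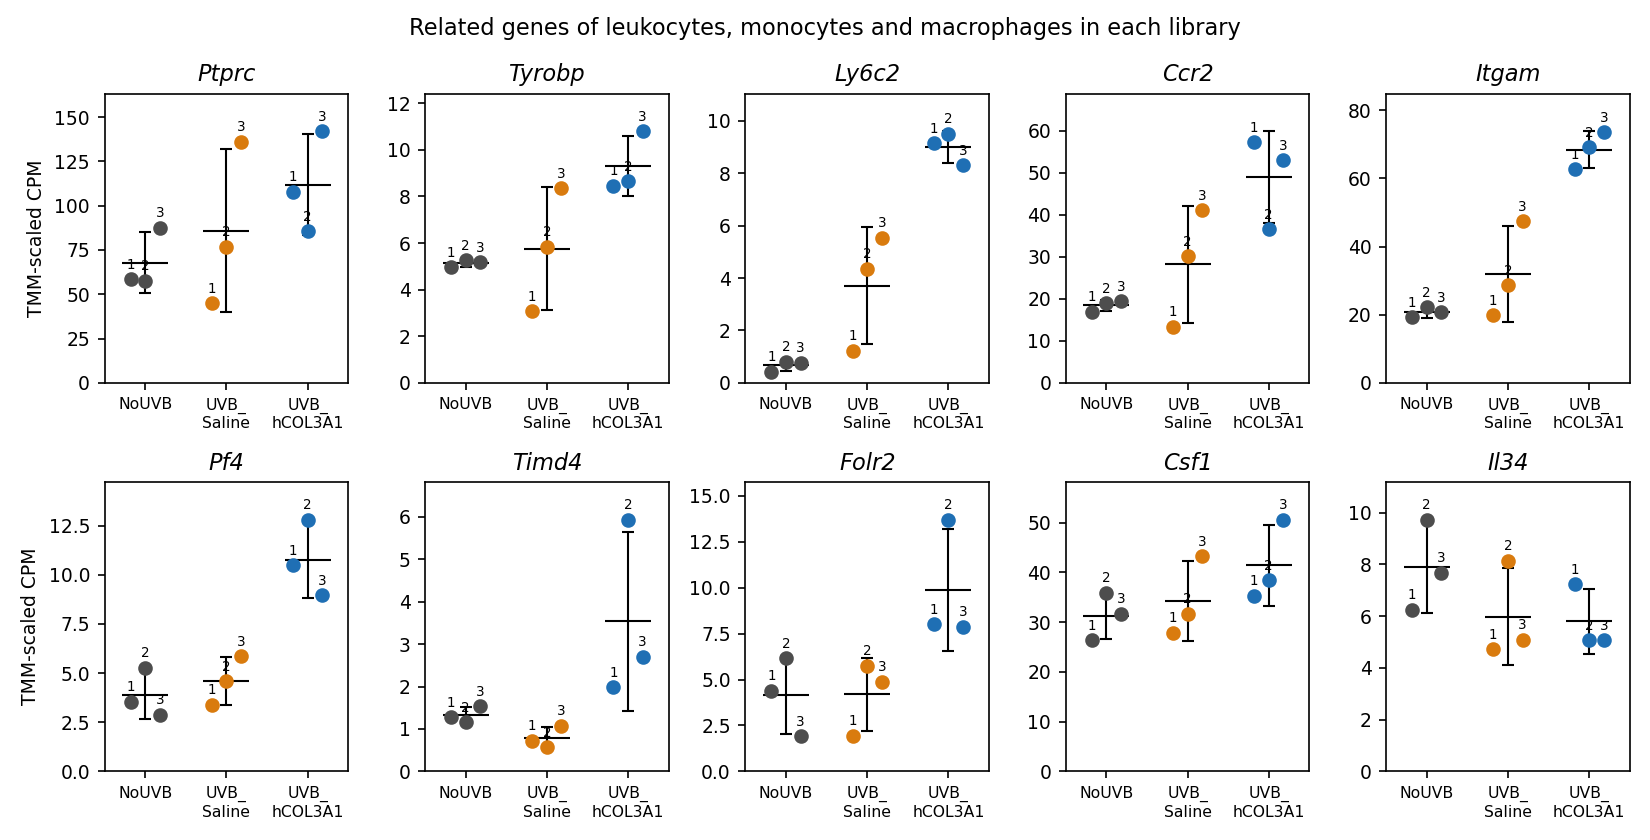
Levels of 10 genes related to the members in every library, in TMM-scaled CPM (linear axis from 0). Points are libraries labelled by replicate number, the long bar is the group mean and the error bar 1 SD (n = 3). Ly6c2, Itgam and Pf4 place all 3 UVB_hCOL3A1 libraries above the other 6, and Il34 places the 3 groups over one another.

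The ligands of the Csf1r receptor gave small differences. Csf1 was 26.4 to 35.9 CPM in NoUVB, 27.9 to 43.3 CPM in UVB_Saline and 35.3 to 50.6 CPM in UVB_hCOL3A1, with a log2 difference of 0.27 ± 0.19 between hCOL3A1 and saline (adjusted p = 0.631, edgeR). Il34, the ligand made by keratinocytes, was 6.25 to 9.73, 4.72 to 8.14 and 5.07 to 7.24 CPM, a difference of -0.05 ± 0.26 between hCOL3A1 and saline and -0.45 ± 0.26 between hCOL3A1 and NoUVB (adjusted p = 0.967 and 0.536, edgeR). Of the 8 myeloid transcription factors, 0 were called by edgeR in any comparison, with 1, 1 and 0 genes at an unadjusted p of at most 0.05. Spi1, which encodes PU.1, was 9.80 to 11.5 CPM in NoUVB, 5.85, 14.5 and 24.5 CPM in UVB_Saline and 16.7 to 22.8 CPM in UVB_hCOL3A1. Its difference was 0.89 ± 0.41 between hCOL3A1 and NoUVB and 0.38 ± 0.40 between hCOL3A1 and saline (adjusted p = 0.441 and 0.768, edgeR), with UVB_Saline 3 above every hCOL3A1 library. Maf, which promotes the resident macrophage state but is also active in other skin cells, was 0.39 ± 0.11 higher with hCOL3A1 than with saline and had a difference of -0.43 ± 0.11 for saline against NoUVB (adjusted p = 0.260 and 0.302, edgeR).

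Partners of the members in Fc receptor signalling, complement and lysosomes were tested as 3 further lists. All 8 Fc receptor and adaptor genes had positive differences between hCOL3A1 and saline (median 0.61, or 1.09 without UVB_Saline 3). Without UVB_Saline 1 the median was 0.27, with 6 of 8 positive. Against NoUVB 7 of 8 had separate, higher groups (median 0.87), as had 10.7% of all genes. Tyrobp was 4.97 to 5.27 CPM in NoUVB, 3.08 to 8.35 CPM in UVB_Saline and 8.46 to 10.8 CPM in UVB_hCOL3A1, at 0.69 ± 0.28 against saline (adjusted p = 0.401, edgeR). All 6 genes that act with C1q were also positive against saline (median 0.75), with Serping1, the C1 inhibitor, at 1.09 ± 0.29 and the central component C3 at 1.18 ± 0.37 (adjusted p = 0.260 and 0.336, edgeR). For saline against NoUVB the median of these 6 was -0.23. Without UVB_Saline 3 the medians were 1.34 for hCOL3A1 against saline, with 4 of the 6 called by edgeR and 0.442% of all genes called, and -0.69 for saline against NoUVB. Without UVB_Saline 1 they were 0.54, with 5 of 6 positive and 0 called, and -0.02.

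Of the 11 tested phagocytosis and lysosome genes, all were positive against saline (median 0.47). Without UVB_Saline 3, 12 passed the filter and 11 were positive (median 0.72). Without UVB_Saline 1, 12 also passed and 10 were positive (median 0.31). The protease Ctsb was 262 to 330 CPM in NoUVB, 225 to 303 CPM in UVB_Saline and 409 to 527 CPM in UVB_hCOL3A1, at 0.73 ± 0.15 against saline (adjusted p = 0.201, edgeR). Lamp1, a lysosomal membrane protein, was 98.9 to 123 CPM in UVB_Saline and 141 to 182 CPM in UVB_hCOL3A1, at 0.49 ± 0.12 (adjusted p = 0.222, edgeR). Msr1, the scavenger receptor SR-A, was 2.68 to 3.41 CPM in NoUVB, 2.98 to 10.6 CPM in UVB_Saline and 9.99 to 11.9 CPM in UVB_hCOL3A1. Its difference was 0.75 ± 0.35 against saline (adjusted p = 0.458, edgeR) and 1.83 ± 0.38 against NoUVB (adjusted p = 0.145, edgeR). Of these 3 lists edgeR called 0 genes in any comparison, and against NoUVB the hCOL3A1 group reached an unadjusted p of at most 0.05 with higher levels in 6 of 8 Fc receptor, 1 of 6 complement and 6 of 11 lysosome genes, against 6.29% of all genes.

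**Figure D5:**
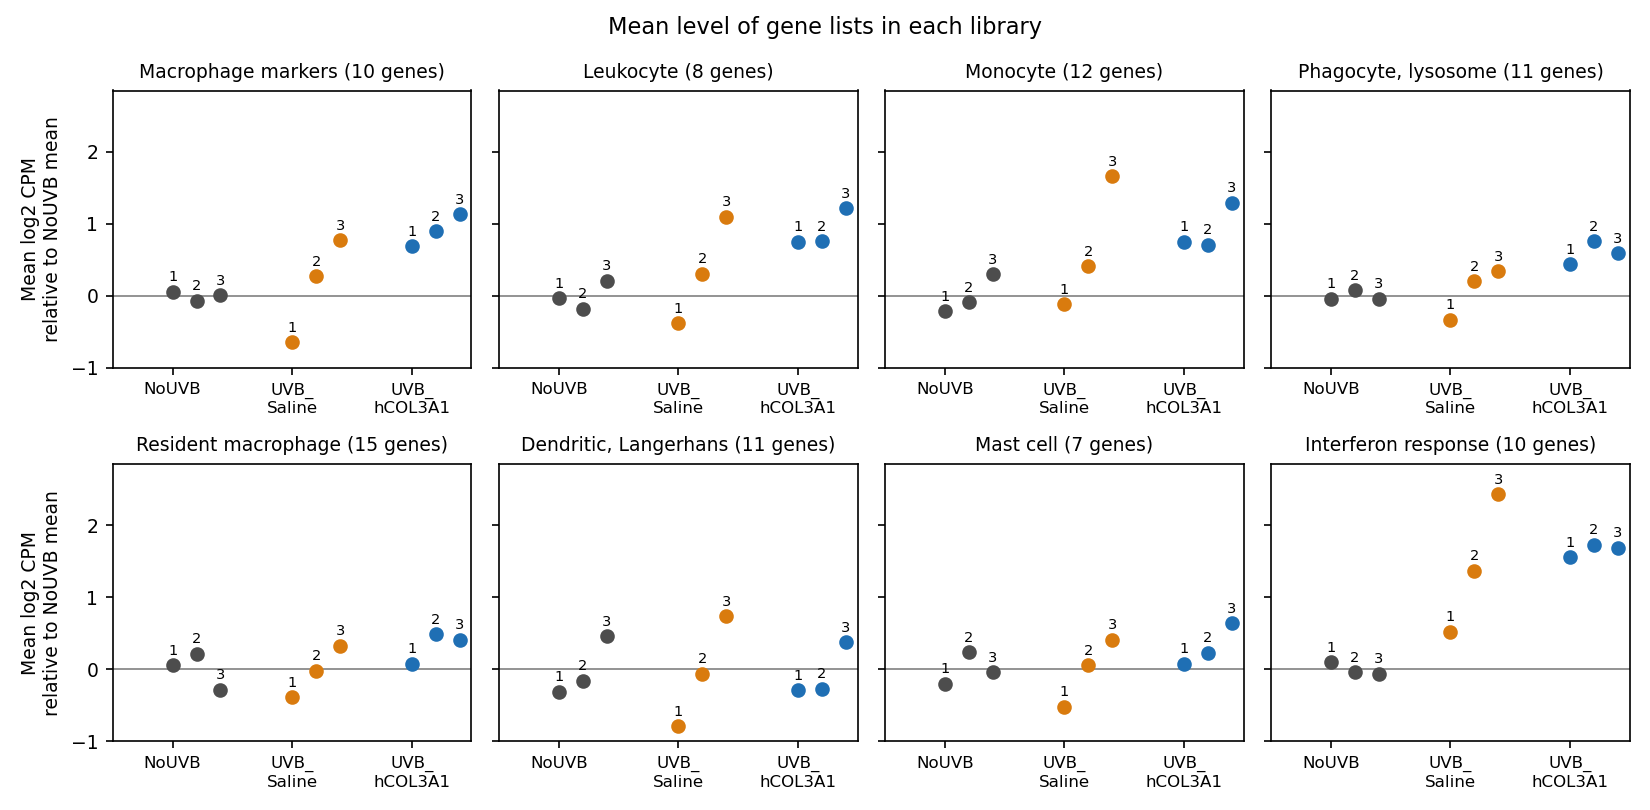
Mean log2 CPM of 8 gene lists in each library, relative to the mean of the NoUVB libraries. Points are libraries labelled by replicate number; the horizontal line marks the NoUVB mean. The macrophage markers lie at -0.64 in UVB_Saline 1, 0.77 in UVB_Saline 3 and 0.69 to 1.13 in UVB_hCOL3A1, and dendritic and Langerhans markers at -0.29 to 0.38 in UVB_hCOL3A1.

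Lists of other cell types gave mixed directions. The 11 dendritic and Langerhans cell markers summed to 494 to 737 CPM in NoUVB, 320 to 1170 CPM in UVB_Saline and 486 to 911 CPM in UVB_hCOL3A1. Between hCOL3A1 and saline 3 of 11 differences were positive (median -0.14). Without UVB_Saline 3 this was 10 of 11 (median 0.33), and without UVB_Saline 1 it was 1 of 11 (median -0.44). Neutrophil RNA was scarce: 3 of 11 markers passed the filter, these summed to 7.65 to 25.3 CPM over the libraries, and the defining marker Ly6g had 0 counts in all 9. The 7 mast cell markers summed to 107 to 136, 89.4 to 151 and 130 to 185 CPM, and the 9 tested T and natural killer cell markers to 16.4 to 26.0, 16.8 to 48.0 and 19.3 to 35.7 CPM. Between hCOL3A1 and saline the mast cell median was 0.25, with 0.71 without UVB_Saline 3 and 0.19 without UVB_Saline 1. The T and natural killer cell median was -0.21, with 0.52 without UVB_Saline 3 and -0.38 without UVB_Saline 1. The 8 fibroblast markers summed to 5871 to 7023 CPM in NoUVB, 5590 to 6002 CPM in UVB_Saline and 7142 to 8570 CPM in UVB_hCOL3A1, all 8 were positive between hCOL3A1 and saline (median 0.39), and their part in the member results was not tested. The 6 lymphatic endothelial markers summed to 136 to 168, 101 to 121 and 154 to 163 CPM in the same order. The 7 adipocyte markers summed to 361 to 907, 298 to 427 and 475 to 725 CPM, and all 7 were positive between hCOL3A1 and saline (median 0.74). The 7 keratinocyte markers lay on the other side, with 0 of 7 positive between hCOL3A1 and saline (median -0.35) and sums of 6368 to 7334, 7055 to 9876 and 6084 to 8086 CPM. The part of these lists in the member results was not tested either.

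Interferon-response genes had higher fitted levels in both irradiated groups than in NoUVB. All 10 had positive differences for saline against NoUVB (median 1.72) and for hCOL3A1 against NoUVB (median 1.86), and 5 of 10 between hCOL3A1 and saline (median -0.10). Their sums were 85.5, 128 and 456 CPM in UVB_Saline 1 to 3. Without UVB_Saline 3 the medians were 1.22 for saline against NoUVB, with 9 of 10 positive, and 0.71 for hCOL3A1 against saline, with 10 of 10 positive. Without UVB_Saline 1 they were 2.03, with 10 of 10 positive, and -0.46, with 3 of 10 positive. Irf7, a transcription factor of the interferon response, rose from 4.81 to 6.11 CPM in NoUVB to 33.6 to 58.9 CPM in UVB_hCOL3A1, and Oasl1, an interferon-induced regulator, from 0.577 to 0.804 CPM to 4.64 to 5.64 CPM. Their log2 differences were 2.99 ± 0.33 and 2.89 ± 0.37 (adjusted p = 0.0482 for each, edgeR), and that of Oasl1 rests on low NoUVB levels. Both calls lay near the threshold: over 20 alternatives Irf7 lost its call in 7, with adjusted p-values up to 0.228, and Oasl1 in 8, up to 0.239. Omission of any single NoUVB library, of UVB_hCOL3A1 1 or of UVB_hCOL3A1 2 ended both calls, as omission of UVB_Saline 2 did for Irf7 and of UVB_hCOL3A1 3 for Oasl1.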

How the data were processed

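Macrophage markers were read from a deposited table of estimated counts per gene for 9 mouse skin libraries (paired 150 bp reads, per the labels' protocols). The authors' tools, per the submitters' processing notes, were RSEM 1.3.3, STAR 2.7.11b, Bowtie2 2.5.4, DESeq2 1.44.0 and fastp 0.23.4 with build GRCm39, and their roles are not stated. The deposited estimated counts were rounded, as 11.1% to 14.0% of values per library were not whole. Rows with no gene symbol (525, 0.0384% of counts) were kept under their gene IDs in the filter and the fit. They were left out only of the ranking of genes most like the member profile.

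Genes passing edgeR's filterByExpr (17168) were scaled by TMM and fitted with robust quasi-likelihood in edgeR 4.0.16 (R 4.3.3, limma 3.58.1), with all 3 groups in 1 model (6 residual degrees of freedom) and Benjamini-Hochberg adjustment at 0.05. CPM are TMM-scaled, and log2 CPM use a prior count of 2. Per-kb levels use the exon union of GENCODE M21, a GRCm38 annotation. DESeq2 1.42.0 and voom were alternatives. The code was tested on simulated counts.

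Members and lists were chosen with earlier results of these data known. Named were the members, Lyz1, Csf1, Il34, up to 3 genes with the smallest p per described list, and the 5 genes most like the member profile; Ptprc, and genes from these lists shown outside their own comparison, were added after values were seen. Replicate numbers were not taken to pair libraries.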

Additional observations from a re-analysis of the deposited data

How the results depend on the processing

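Counts of genes and members called at an adjusted p of 0.05 depended on the processing. In the order UVB_Saline minus NoUVB, UVB_hCOL3A1 minus UVB_Saline and UVB_hCOL3A1 minus NoUVB, 3, 0 and 7 genes were called. The counts were 100, 30 and 159 with library size alone, 73, 106 and 178 without the low-count filter, 96, 175 and 257 with DESeq2, and 5, 26 and 91 without UVB_Saline 3 and UVB_hCOL3A1 3 together. For UVB_hCOL3A1 minus NoUVB they were 1 without robust fitting, 0 with limma voom and 407 with only the 2 groups fitted. Leaving out 1 library at a time gave 0 to 12, 0 to 78 and 0 to 242 genes, and 0, 0 to 2 and 0 to 3 members. Among members, UVB_hCOL3A1 minus NoUVB gave 2 with library size alone, 3 with DESeq2 and 6 with only the 2 groups, and UVB_hCOL3A1 minus UVB_Saline gave 1 with DESeq2. Library size alone moved the median of all genes to -0.12 in UVB_hCOL3A1 minus NoUVB. The cause of these shifts was not tested.

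With the replicate number as a block, 61, 74 and 118 genes were called, and 1 member, C1qb, between hCOL3A1 and saline, where 0.431% of genes were. The numbers were not shown to pair libraries, and the labels give no pairing. Same-numbered libraries correlated at 0.02 to 0.41 in their deviations from group means, highest between UVB_Saline 3 and UVB_hCOL3A1 3. Libraries with different numbers correlated at -0.39 to 0.26. UVB_Saline 1 correlated best with UVB_hCOL3A1 2, at 0.26, and at 0.17 with UVB_hCOL3A1 1.

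The sign of small differences was not stable among members and the other genes covered by the naming rule. For saline minus NoUVB, without UVB_Saline 3 and UVB_hCOL3A1 3 together, the log2 differences were -0.18 for Csf1r, -0.05 for C1qa, -0.34 for C1qc, -0.32 for Lyz2, -0.44 for Pdcd1lg2, -0.09 for Csf1 and -0.17 for Ptprc. In that setting Csf2ra was 0.03 between hCOL3A1 and saline and Runx1 -0.04 between hCOL3A1 and NoUVB. With library size alone Csf1 was -0.00 between saline and NoUVB and Runx1 -0.07 between hCOL3A1 and NoUVB. Leaving out 1 library at a time, saline minus NoUVB ranged from -0.22 to 0.29 for Cd68, -0.19 to 0.46 for Csf1r, -0.35 to 0.15 for Mrc1, -0.05 to 0.82 for C1qa, -0.39 to 0.22 for C1qb, -0.34 to 0.51 for C1qc, -0.32 to 0.48 for Lyz2, -0.44 to 2.18 for Pdcd1lg2, -0.70 to 0.09 for Lyz1, -0.09 to 0.25 for Csf1 and -0.17 to 0.65 for Ptprc. Between hCOL3A1 and saline the ranges were -0.07 to 0.85 for Csf3r, -0.42 to 0.35 for Csf2ra, -2.48 to 0.25 for Pdcd1lg2, -2.09 to 0.05 for Cxcl10, -0.73 to 0.09 for Lyz1 and -0.22 to 0.26 for Il34, and between hCOL3A1 and NoUVB -0.38 to 0.18 for Cd163 and -0.04 to 0.12 for Runx1. All 10 members kept a positive difference between hCOL3A1 and saline in each of the 20 alternatives. Some of these came close to none, down to 0.04 for Cd163, 0.08 for Csf1r and C1qa and 0.10 for Lyz2. Most members varied together, so their signs are not separate results. With 3 libraries a group, an exact permutation test of 1 gene cannot go below a two-sided p of 0.10.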

Other observations

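Genes linked to alternative activation of macrophages did not move as 1 group. Of 7 tested, 2 had positive differences between hCOL3A1 and saline (median -0.20) and 4 between hCOL3A1 and NoUVB (median 0.13). Against saline 5 of 7 were positive without UVB_Saline 3 (median 0.36) and 2 of 7 without UVB_Saline 1 (median -0.43). Over all libraries edgeR called 0 in either comparison, from 0 and 2 genes with an unadjusted p of at most 0.05. Arg1, the arginase of this state, which skin epithelium also expresses, differed from NoUVB by -0.79 ± 0.30 with hCOL3A1 (adjusted p = 0.340, edgeR), and Mrc2, the collagen-binding relative of the mannose receptor that fibroblasts also express, by 0.40 ± 0.15 (adjusted p = 0.340, edgeR). The lectin gene Cd209a stood at -1.22 ± 0.37 for saline against NoUVB (adjusted p = 0.361, edgeR) and at 0.55 ± 0.38 for hCOL3A1 against saline (adjusted p = 0.629, edgeR).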
